A study of Rattus norvegicus with 8 samples.

Results

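Water restriction (WR) was compared with tap water (TW) in the epithelium of the proximal small intestine of Wistar rats, 4 months old by the submitters' labels and female by the study's methods. The comparison rests on 4 of the 8 arrays in the series: 2 from rats restricted from water for 12 h and 2 from rats given TW for 3 days. The other 4 arrays, from rats that drank deep-sea water of 1200 hardness (DSW1200) or selenium water (SeW) for 3 days, entered the same model and are used here only as a second point of reference. All groups shared the isolation of the cells, in which short proximal segments were shaken loose from their epithelium in a chelating buffer, filtered and spun down. RNA was read on Affymetrix Rat Genome 230 2.0 arrays, and values below are MAS5 signal intensities after quantile normalization, written as TW replicates 1 and 2 and WR replicates 1 and 2. Of 31099 probe sets, 20832 had a single gene symbol. They stood for 14217 genes, and 9258 of these were tested, having a mean above the median probe set (a signal of 6.69); the other 4959 are called dim. The sources do not say whether the 2 arrays of a group came from separate animals, so a p-value measures only the spread between these samples. A longer WR appears in the study's account of its arrays too, the WR arrays carry sample codes of another form than those of the waters, and neither access to food nor the time of day at collection is given in the sources used here.

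The proximal small intestine takes up most of a meal's sugar, peptide, fat, iron and water, and it secretes bicarbonate against gastric acid. Its lining is renewed from crypts, where stem and dividing cells lie beside Paneth cells that release antimicrobial defensins and lysozyme, and where chloride secretion is set up; the cells that climb the villus become enterocytes with a brush border of digestive enzymes, fat-handling machinery and detoxifying enzymes. Nrf2 is the transcription factor that drives many genes for NADPH supply, glutathione and thioredoxin, by binding short antioxidant response elements near their promoters.

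The labelled tissue was borne out by its markers. *Epcam*, the epithelial adhesion molecule, lay at 4271 and 4163 in TW and at 4204 and 4163 in WR, and *Vil1*, the villin of brush borders, at 3076 and 2700.3 against 2795 and 2996. *Cdh17*, the cadherin of intestinal epithelium, read 4843 and 4643 against 4785 and 5004, so the markers named here were even across the arrays. Not all were: of 8 tested epithelial markers 2 lay higher and 2 lower without overlap (18.4% and 21.3% of all tested genes). Among the lower was *Cldn7* (-0.997), described with the junctions below. The duodenal factor *Pdx1* read 395 and 356 against 286 and 318. TW replicate 2 stood apart: its median deposited signal was 4.3 against 8.4 in TW replicate 1 and 9 and 8 in WR, and its mean correlation with the other arrays was the lowest of the 8 (0.907). The beta-actin 3'/5' ratio, a measure of RNA length, did not separate TW from WR (24.1 and 20.6 in TW, 21.1 and 24.8 in WR). It was high on all 4 arrays, with 3' signal at least 20.6 times the 5' signal, a limit that they share. The same ratio for *Gapdh* was 2.66 and 3.08 in TW and 2.35 and 2.73 in WR. Among tested genes 961 differed at least 2-fold between the TW arrays and 453 between the WR arrays.

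By limma with Benjamini-Hochberg adjustment over 9258 genes, 1 gene rose in WR (0.0108% of those tested) and 0 fell (0.0%) at adjusted p 0.05. At an unadjusted p under 0.05, 461 genes lay higher in WR (4.98%) and 437 lower (4.72%). By size alone, 224 genes were at least 2-fold higher with both WR arrays above both TW arrays (2.42%) and 106 were at least 2-fold lower without overlap (1.14%). This split depended on scaling. Without normalization the middle of the tested genes was shifted up in WR by 0.38 log2 units, and the counts were 746 and 18; after quantile normalization that median was -0.01. With 2 arrays against 2, an exact permutation test of a single value cannot give a p below 0.333. Apart from *Defa24*, no gene named below passed the test, and what follows for them describes levels.

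**Figure D1:**
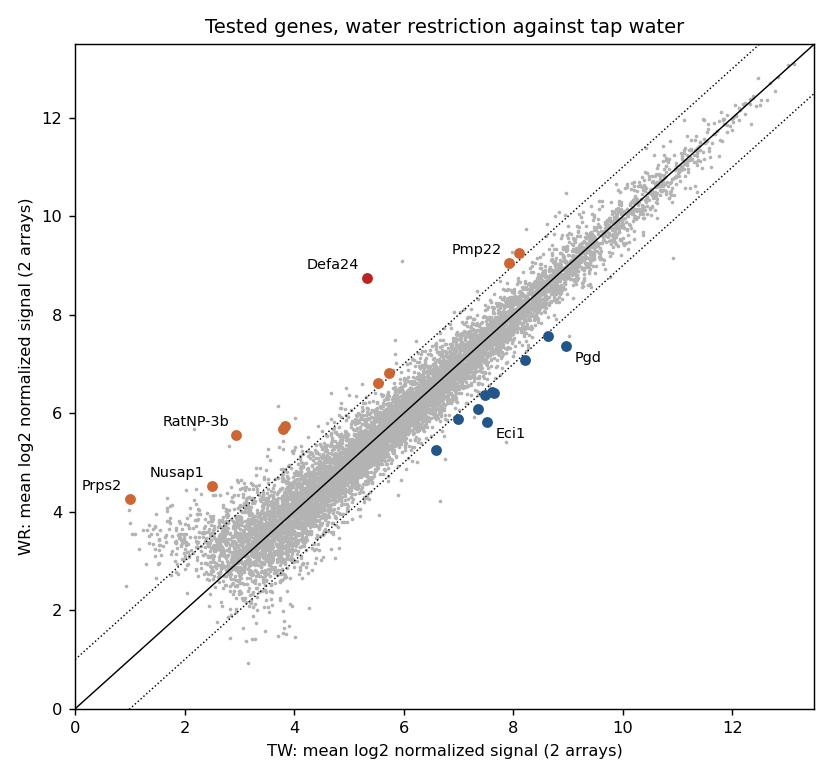
Mean log2 normalized signal of each of the 9258 tested genes in TW (horizontal axis) and WR (vertical axis), each the mean of 2 arrays; the solid line marks equal levels and the dotted lines a 2-fold difference. Red marks *Defa24*, the 1 gene past adjusted p 0.05, which lies far above the upper dotted line; orange and blue mark the other named genes that lay at least 2-fold higher and lower, and the cloud widens toward dim genes.

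The gene that rose was *Defa24*, an alpha-defensin of Paneth cells. Its signal was 31.0 and 51.6 on the TW arrays and 367 and 502 on the WR arrays, so that the lower WR array stood well above the higher TW array. The rise was 3.42 log2 units, or 10.7-fold (SE 0.32, limma adjusted p 0.00934, n = 2 arrays per group). The adjusted p was 0.0663 without WR replicate 1, 0.320 without WR replicate 2, 0.280 with no filter on dim genes and 0.211 without an intensity trend, so the call was lost in these 4 settings while the size stayed between 3.20 and 3.65. Without TW replicate 2, the array that stood apart, the rise was 3.79 (adjusted p 0.0167). The DSW1200 arrays read 134 and 96.0 and the SeW arrays 225 and 137. WR thus lay above both waters as well as TW, by 1.60 log2 units against their mean (SE 0.28, limma adjusted p 0.347), and both waters lay between TW and WR. Alpha-defensins are a family of near-identical copies, and a probe set for 1 copy may also bind others.

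Other Paneth and neutrophil defence genes were read beside it. *RatNP-3b*, an alpha-defensin known from neutrophils, lay at 5.05 and 11.7 in TW and at 39.6 and 56.2 in WR, a difference of 2.62 (SE 0.44, limma adjusted p 0.314) that was 0.98 with an offset of 32 added to every signal. *Lyz2*, lysozyme of macrophages and Paneth cells, was at 436 and 258 against 531 and 524, 0.65 log2 units apart (adjusted p 0.465). *Pla2g2a*, the secreted phospholipase of Paneth granules, was dim, at the floor of 1 on both TW arrays and at 20.3 and 6.01 in WR. The groups did not overlap for any of these. Not every Paneth marker took this direction: *Ang* lay at 17.8 and 16.3 against 15.8 and 19.4, *Defa5* was at the floor on all 4 arrays, *Mmp7* was at the floor on all but WR replicate 1, and *Defa7* was at the floor on both WR arrays. The Paneth markers on the array, 8 in all with 3 of them tested, summed to 492 and 346 in TW and to 943 and 1056 in WR. *Lyz2*, which is also counted among the myeloid markers, was the largest part of that sum on all 4 arrays, followed in WR by *Defa24*. In bulk RNA, more cells of a type and more RNA per cell cannot be told apart.

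Among the genes picked by the smallest p at 2-fold or more without overlap, the higher ones had mixed roles. *Prps2*, which makes the sugar phosphate for nucleotide synthesis, read 1.56 and 2.54 in TW and 17.4 and 20.8 in WR, a log2 difference of 3.26. Its TW signals lay below the level of the filter, so the size of that gap is not well set, and with an offset of 32 added to every signal it was 0.59. *Ptprb*, a receptor phosphatase of blood vessel endothelium, read 15.6 and 12.9 against 43.1 and 66.6 (1.92), with its other tested probe set at 0.35. *Nusap1*, which binds spindle microtubules in mitosis, read 6.91 and 4.64 against 23.5 and 22.6, also from a low TW level (2.03, and 0.54 with the offset). *Marchf3*, a membrane ubiquitin ligase, stood at 9.39 and 20.6 against 47.5 and 55.2. The brighter genes differed by 2.22-fold or less, evenly on both arrays. *Dhrs7*, a short-chain dehydrogenase, was at 305 and 251 against 534 and 709, *Pmp22*, a tetraspan membrane protein, at 207 and 285 against 509 and 550.3, and *Fyco1*, which carries autophagosomes along microtubules, at 51.8 and 54.7 against 107 and 119. *Ccdc71* completed the set at 41.5 and 51.0 against 109 and 88.6 (1.09), with its other tested probe set at 0.22. None of the higher genes but *Defa24* passed (limma adjusted p 0.314 to 0.334).

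The 10 lower genes included enzymes of lipid and NADPH metabolism, an actin bundler and a translation factor. *Eci1*, an isomerase that readies unsaturated fatty acids for oxidation, stood at 191 and 177 in TW and at 78.2 and 40.9 in WR, a log2 difference of -1.70 (SE 0.35, limma adjusted p 0.334); with the mean of its probe sets, a dim one included, the sign turned (0.062). *Pgd*, the enzyme of the pentose phosphate pathway that yields NADPH, stood at 394 and 634 against 202 and 136, and *Por*, which passes electrons from NADPH to cytochrome P450, at 242 and 363 against 118 and 156. *Espn*, an actin bundler of microvilli, was nearly equal on the TW arrays (397 and 402) and lower on both WR arrays (224 and 161). *Eif2b4*, a subunit of the exchange factor that restarts translation, read 157 and 202 against 87.7 and 78.7. The calpain protease *Capn13* read 232 and 175 against 104 and 69.3, the dehydrogenase *Dhrsx* 132 and 202 against 87.0 and 53.3, and *Zswim8*, an adaptor in microRNA decay, 79.9 and 116 against 47.1 and 31.4. The set was completed by *Ociad2*, at 142 and 114 against 61.0 and 57.0, and *C8h11orf54*, at 185 and 207 against 98.1 and 76.6. No WR array reached a TW array for any of these genes, which was a condition of their choice. None passed (limma adjusted p 0.334 to 0.373). For *Zswim8*, 1 of its 3 probe sets lay the other way (0.19). The other tested probe set of *Por* showed little difference (-0.09, beside -1.13 for the one shown).

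**Figure D2:**
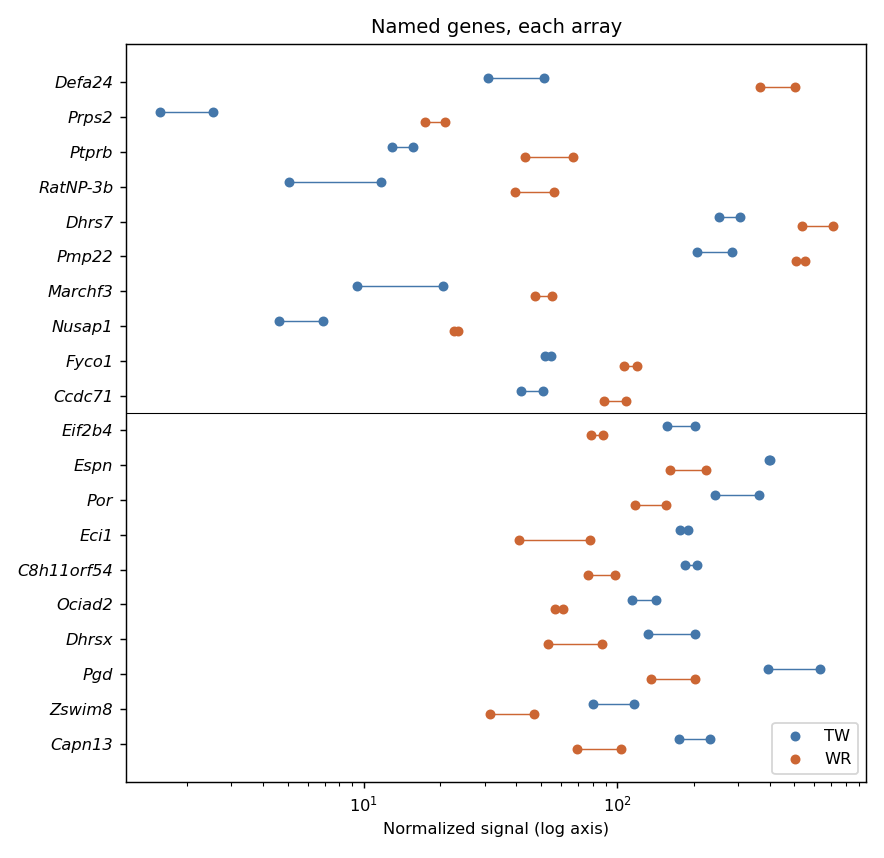
Normalized signal on each of the 2 TW arrays (blue) and 2 WR arrays (orange) for the 20 genes named by rank, on a log axis; a line joins the 2 arrays of a group. The 10 genes above the horizontal rule were higher in WR and the 10 below it lower, without overlap because the choice of genes required it. Gaps that start from a TW signal of a few units, as for *Prps2* and *Nusap1*, are wide on this axis but shrink once an offset is added, while *Defa24* stood clear at higher signals.

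Nrf2 targets as a list leaned lower in WR. Of 22 tested, 17 had a lower mean and 5 a higher one, where 51.1% of all tested genes were lower. In 12 of the 22 both WR arrays lay below both TW arrays, and in 1 above (21.3% and 18.4% of all tested genes). By limma 9 had an unadjusted p under 0.05, all lower (4.72% of all tested genes). The median log2 difference was -0.38 against -0.01 for all genes. With the values as deposited it was -0.08 against 0.38, so the list lay below the median gene under either scaling. None passed the adjusted test (smallest limma adjusted p 0.373), and 18 or more of the 22 were lower with any 1 of the 4 arrays left out; the median without TW replicate 2 was -0.36.

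Members for NADPH and thioredoxin were among those with wide gaps. Beside *Pgd*, *Tkt*, the transketolase of the same pathway, lay at 519 and 568 in TW and at 352 and 298 in WR (-0.75, SE 0.17). *Txnrd1*, cytosolic thioredoxin reductase, lay at 549.6 and 679 against 430.0 and 330.4 (-0.70, SE 0.19, limma adjusted p 0.400), and its other probe set was lower as well (-0.84). *Akr7a3*, an aldehyde reductase, lay at 2322 and 2981 against 1771 and 1159 (-0.88), *Nqo1*, a quinone reductase, at 149.9 and 177 against 98.1 and 69.8 (-0.98), and *Gstp1*, a glutathione transferase, at 891 and 1042 against 781 and 579.9 (-0.52). In each of these the groups stood clear of each other. Both subunits of the enzyme that starts glutathione synthesis were level: *Gclc* read 0.08 and *Gclm* 0.03 on the log2 scale, and *Cbr1*, a carbonyl reductase, lay higher in WR at 75.3 and 58.4 against 86.3 and 84.2.

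Promoters of this list were searched for the antioxidant response element core, TGACNNNGC, on both strands of the window from 250 bases before to 50 after the start in RefSeq (GRCr8). It was found in 8 of the 20 tested members with a promoter entry and in 13.1% of 27457 genes. *Txnrd1* and *Gstp1*, whose levels are given above, are shown with the match in capitals; in *Txnrd1* it runs on the reverse strand. *Txnrd1* is at chr7:22755855-22756154 and *Gstp1* at chr1:210769656-210769955, both on the minus strand. *Pgd*, *Tkt*, *Nqo1* and *Akr7a3* held no match in the windows searched.
Txnrd1: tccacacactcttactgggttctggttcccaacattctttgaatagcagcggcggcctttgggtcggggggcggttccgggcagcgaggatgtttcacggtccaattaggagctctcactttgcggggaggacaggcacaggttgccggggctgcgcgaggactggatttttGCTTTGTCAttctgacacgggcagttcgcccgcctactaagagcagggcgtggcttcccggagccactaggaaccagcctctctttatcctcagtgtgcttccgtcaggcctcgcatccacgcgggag
Gstp1: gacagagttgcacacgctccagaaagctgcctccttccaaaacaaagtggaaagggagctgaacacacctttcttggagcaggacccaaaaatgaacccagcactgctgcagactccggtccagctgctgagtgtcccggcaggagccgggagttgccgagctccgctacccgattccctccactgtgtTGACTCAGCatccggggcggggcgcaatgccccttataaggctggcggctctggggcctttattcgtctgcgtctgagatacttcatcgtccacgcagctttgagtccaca

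Antioxidant enzymes, a list that shares several of these genes, had 22 of 33 tested members lower and 11 higher, with 12 and 3 standing clear of TW (21.3% and 18.4% of all tested genes did so) and a median of -0.20 (0.13 as deposited, against 0.38 for all genes). *Sod1*, the cytosolic superoxide dismutase, stood at 1226 and 1411 in TW and at 767 and 872 in WR, and *Ccs*, which loads copper into it, at 338 and 432 against 268 and 266. The metal-binding metallothionein *Mt1* read 189.7 and 119 against 97.7 and 69.9, and *Mt2A* 798 and 336 against 221 and 161. Both lay lower in WR, with wide gaps between the TW arrays. Glutathione peroxidases were divided on the log2 scale, *Gpx2* at -0.33, *Gpx4* at -0.27, *Gpx1* at 0.02, *Gpx8* at 0.04 and *Gpx3* at 0.57. Catalase (*Cat*) was at 0.24 and the mitochondrial dismutase *Sod2* at -0.08. The smallest limma adjusted p of the list was 0.398. The 6 oxidative stress genes that the study lists for WR, all lower there, were measured on its PCR arrays. Whether the same RNA was used is not stated, so they are not taken as independent evidence. Here 4 were tested, 3 lay lower and 0 passed by limma, with *Sod1* alone at an unadjusted p under 0.05.

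Genes that handle fat leaned lower. Of 23 tested genes of fatty acid oxidation and ketone body synthesis, 18 lay lower, 14 of them without overlap (21.3% of all tested genes), 7 had an unadjusted p under 0.05, all lower (4.72% of all tested genes), and the median was -0.27 (0.03 as deposited). *Hadha*, a subunit of the mitochondrial trifunctional protein, was at 464 and 445 in TW and at 318 and 295 in WR (-0.57, SE 0.16, limma adjusted p 0.429); its other tested probe set was at -0.18, and the mean of its probe sets at -0.059. *Acadvl*, which starts the oxidation of very long chains, was at 318 and 353 against 207 and 280.2. *Angptl4*, a secreted inhibitor of lipoprotein lipase that fasting induces in other tissues, was at 38.1 and 39.8 against 20.4 and 16.6. The TW arrays lay close together for *Hadha* and *Angptl4*, and both WR arrays were below them. *Acot2*, a mitochondrial thioesterase, was at 67.4 and 64.8 against 46.3 and 38.9, though its other probe set showed no such gap (0.04). *Ehhadh*, the peroxisomal counterpart of *Hadha*, overlapped between the groups, at 160.3 and 213 against 254 and 198.

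**Figure D3:**
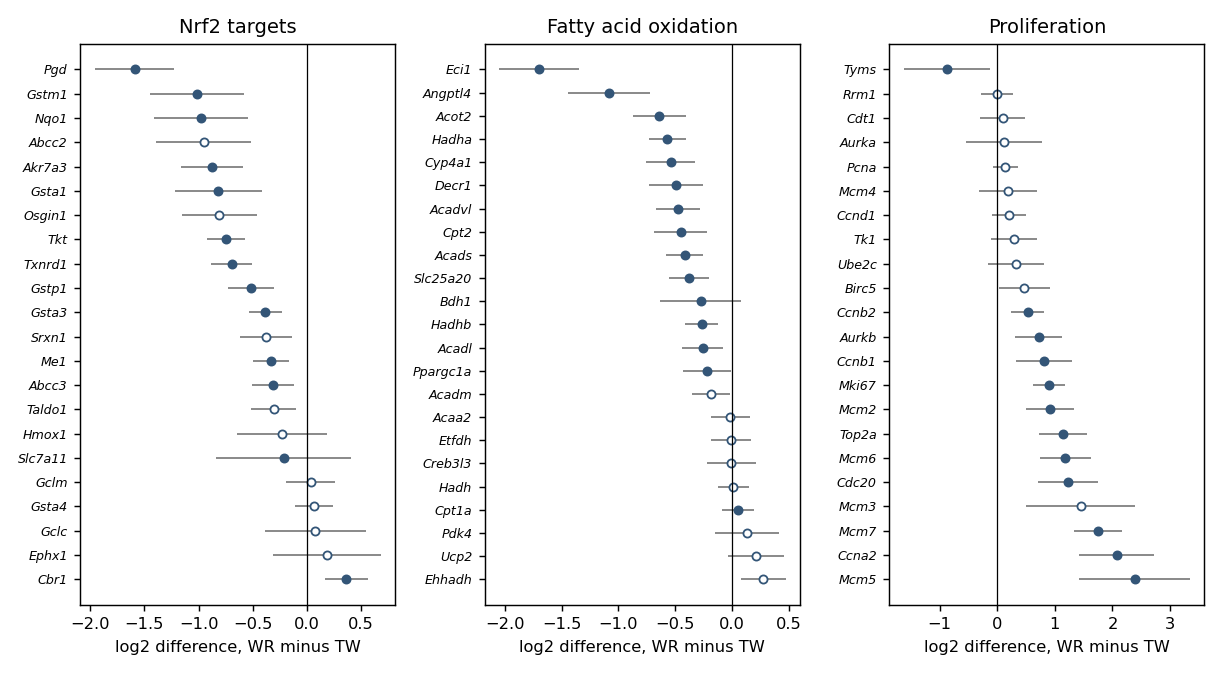
Log2 difference between WR and TW (horizontal axis) of each tested member of 3 lists, with the standard error from limma as bars; filled points are genes whose 2 WR and 2 TW arrays do not overlap. Most Nrf2 targets and fatty acid oxidation genes lie left of 0, led by *Pgd* and *Eci1*, and most proliferation genes lie right of 0 with wider bars.

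For dietary fat, 12 of 17 tested genes of absorption and chylomicron assembly lay lower and 4 higher, with 9 and 0 standing clear (21.3% and 18.4% of all tested genes) and a median of -0.17 (-0.01 as deposited). *Apoa4*, an apolipoprotein made as chylomicrons form, read 2498 and 2605 in TW and 1901 and 1293 in WR, a difference of -0.70 (SE 0.18, limma adjusted p 0.373). *Apoc3*, another chylomicron protein, read 3612 and 3299 against 2981 and 1914, and *Slc27a4*, the fatty acid transport protein of enterocytes, 1824 and 1925 against 1359.7 and 1401. *Plin2*, a coat protein of lipid droplets, read 1773 and 2183 against 1695 and 1125; its other probe set lay higher in WR (0.68), and the mean of its probe sets turned the sign (0.084). *Fabp1*, the abundant fatty acid binding protein, spanned the same 2 values in both groups, 7833 and 6779. Quantile normalization assigns values by rank, so this match means equal ranks among the brightest probe sets. The same holds for other bright genes with a value shared between arrays, such as *Epcam*.

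Fat synthesis had 7 of 8 tested members lower, 4 of them without overlap (21.3% of all tested genes), and a median of -0.28 (0.02 as deposited). *Mlxipl*, the sugar-responsive factor ChREBP, was at 170.3 and 181 in TW against 109.5 and 107 in WR, a gap far wider than the distance between replicates (-0.70, SE 0.18, limma adjusted p 0.373). *Srebf1*, the insulin-responsive factor, was at 58.2 and 62.8 against 42.0 and 38.0. *Elovl6*, a chain-lengthening enzyme and a target of both factors, was at 497 and 761 against 434 and 344. The other tested probe set showed a smaller difference for both genes, -0.04 for *Elovl6* (beside -0.67) and -0.18 for *Srebf1* (beside -0.60). No gene of these 3 lists passed. With 1 of the 4 arrays left out at a time, 16 or more of 23, 12 or more of 17 and 5 or more of 8 had a lower mean, and without TW replicate 2 the medians were -0.24, -0.11 and -0.35.

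Sugar handling was split. *Pck1*, which commits carbon to glucose and is induced by glucagon and glucocorticoids in liver, read 485 and 393 in TW and 1109 and 966 in WR, a difference of 1.25 (SE 0.28, limma adjusted p 0.373). *Fbp1*, the next regulated step toward glucose, lay the other way at 671 and 783 against 534 and 394. *Khk*, which phosphorylates fructose, lay at 376 and 302 against 243 and 204. *Pck1* also separated the waters, at 134 and 269.7 in DSW1200 and 1155 and 1222 in SeW, so WR stood near SeW and far from DSW1200. Of the 8 tested gluconeogenesis genes 3 lay higher and 5 lower. The *Pck1* promoter (chr3:182348322-182348621, plus strand, RefSeq GRCr8) is shown because of this gap between groups; capitals mark its 1 match on either strand to the core of the cyclic AMP response element, TGACG, here on the reverse strand 90 bases before the start. That core was in 23.0% of 27457 genes' windows and in 2 of the 6 list members with one.
Pck1: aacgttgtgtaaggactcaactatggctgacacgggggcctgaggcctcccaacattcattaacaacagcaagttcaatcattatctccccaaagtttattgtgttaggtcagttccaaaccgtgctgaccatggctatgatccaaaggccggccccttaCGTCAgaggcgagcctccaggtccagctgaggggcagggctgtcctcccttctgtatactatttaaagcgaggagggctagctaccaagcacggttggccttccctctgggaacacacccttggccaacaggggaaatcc

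Of 17 tested nutrient transporters and sugar enzymes 9 lay higher and 8 lower (median 0.03), with 2 amino acid carriers among the higher. *Slc6a20a*, a carrier of proline and other imino acids, was at 59.6 and 55.9 in TW and at 98.4 and 171 in WR (1.17, SE 0.30, limma adjusted p 0.373), and *Slc6a14*, a broad amino acid carrier, at 22.4 and 12.5 against 33.1 and 30.1. In SeW *Slc6a20a* was higher still, at 327 and 424. Its other tested probe set differed less between WR and TW (0.46). Iron genes were mostly even, with 7 of 10 tested members higher and a median of 0.05. *Tfrc*, the transferrin receptor, read 172 and 236 against 259.8 and 459.6, and *Aco1*, whose iron-free form stabilises *Tfrc* mRNA, 152 and 104 against 190.1 and 174.

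Salt and water transport genes are those most often tied to water balance. Of 12 tested genes linked to osmotic stress 10 lay higher in WR and 2 lower, 6 and 1 of them without overlap (18.4% and 21.3% of all tested genes), with a median of 0.25 (0.62 as deposited, 0.13 with arrays scaled by their medians, where the median gene was -0.12). *Aqp3*, a basolateral water and glycerol channel, stood at 104 and 110.1 in TW and at 204 and 220.0 in WR, each pair tight (0.98, SE 0.26, limma adjusted p 0.373). *Sgk1*, the kinase that aldosterone and cell shrinkage induce, stood at 882 and 1337 against 1629.7 and 1607. *Hspa4l*, a chaperone of the osmotic response, stood at 8.82 and 14.2 against 18.2 and 20.7. For *Aqp3*, DSW1200 read 196 and 124 and SeW 500.2 and 328, so WR was not the group with the highest level. Of 5 tested aquaporins, *Aqp3* with the largest difference, 3 lay higher and 2 lower (median 0.17, and -0.24 against the waters). Without TW replicate 2 it was 2 higher and 3 lower (median -0.15).

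Ion transport was divided: 13 of 21 tested genes lay higher, 8 lower, with a median of 0.18 (0.00 after median scaling). The lean was not stable: without WR replicate 1 it was 10 higher and 11 lower (median -0.03), and without TW replicate 2 it was 12 and 9 (0.03). *Slc12a2*, the basolateral cotransporter that loads chloride for secretion, was at 67.2 and 48.8 in TW and at 142 and 225 in WR, a difference of 1.65 (SE 0.34, limma adjusted p 0.334). *Car2*, the carbonic anhydrase that supplies bicarbonate, was at 1646 and 1413 against 2777 and 2109. Both lay higher without overlap, though the other tested probe set of *Car2* differed less (0.27, beside 0.67). *Pdzk1* and *Slc26a6* lay lower by smaller steps: *Pdzk1*, a scaffold for brush border exchangers, was at 421 and 406 against 323 and 300.0, and *Slc26a6*, a chloride-bicarbonate exchanger, at 1411 and 1552 against 1150.0 and 1226. *Guca2b*, uroguanylin, the peptide that drives salt and water secretion, had the lower mean in WR as well, at 2485 and 2039 against 2039 and 1139, with 1 array of each group at the same value.

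The apical surface and the junctions each held lower members in lists that were otherwise balanced. Of 18 tested brush border genes 10 lay lower, 7 without overlap (21.3% of all tested genes), and 8 higher, 1 without overlap (18.4%), with a median of -0.05. Both protocadherins that tie microvilli together were lower, *Cdhr5* at 1925 and 2962 in TW and 1755 and 1346 in WR and *Cdhr2* at 2846 and 3323 against 2667 and 2096. *Ggt1*, which splits glutathione, read 852 and 751 against 697 and 389, and *Treh*, which splits trehalose, 73.2 and 82.8 against 62.6 and 42.1. These 4 genes stood clear of TW. Among junction genes *Cldn7*, an epithelial claudin, stood at 815 and 931 against 352 and 541 (-0.997, SE 0.21, limma adjusted p 0.334) and *Cgn*, the tight junction protein cingulin, at 106 and 119.8 against 86.8 and 73.4, while 10 of 18 tested members lay higher and the median was 0.13. *Cldn7* did not set WR apart from DSW1200 (459 and 451).

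**Figure D4:**
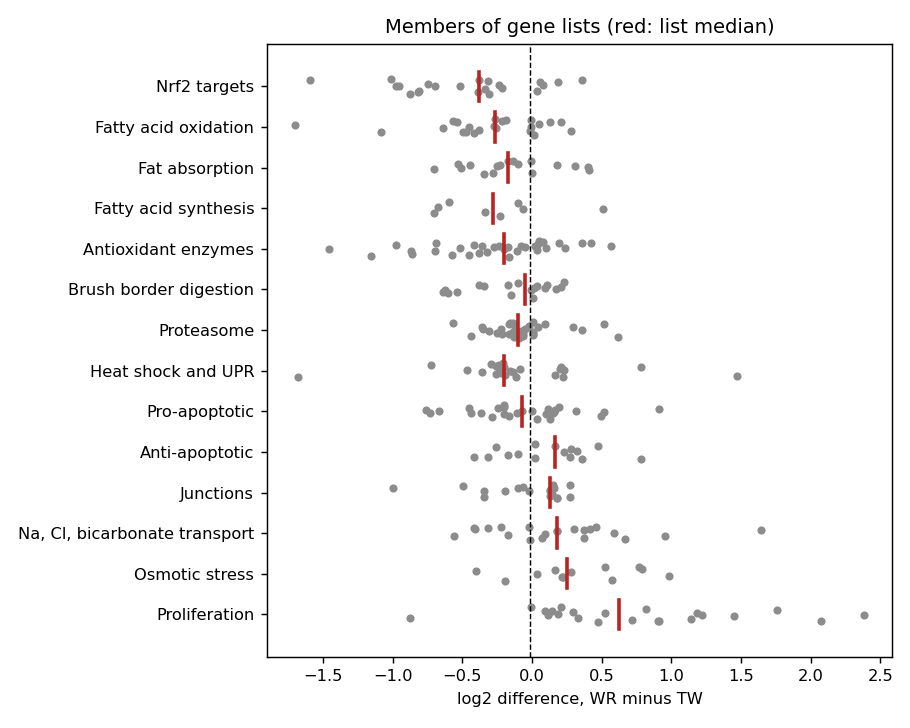
Log2 difference between WR and TW (horizontal axis) of every tested member of 14 gene lists; each grey point is 1 gene, the red bars are list medians and the dashed line is the median of all 9258 tested genes at -0.01. Medians run from -0.38 for Nrf2 targets to 0.62 for proliferation, and members of most lists fall on both sides of the line; with the values as deposited every median lies higher, as does that of all genes (0.38).

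Proliferation genes lay at the other end. Of 22 tested, 20 had a higher mean in WR (48.9% of all genes did), 11 of them without overlap (18.4%), 7 had an unadjusted p under 0.05, all higher (4.98%), and the median was 0.62 (0.38 when only the 4 arrays were quantile normalized, 0.17 with an offset of 32 added to every signal). *Mcm7*, a subunit of the replicative helicase, read 17.9 and 7.44 in TW and 35.6 and 42.7 in WR (1.76, SE 0.42, limma adjusted p 0.373). *Ccna2*, cyclin A2, read 4.95 and 4.14 against 18.4 and 19.7, *Top2a*, the topoisomerase of dividing cells, 8.64 and 9.0 against 15.9 and 23.9, and *Mki67*, the Ki-67 antigen, 28.5 and 22.9 against 39.6 and 57.6. In all 4 genes the groups stood apart, at signals near the low end of the tested range. *Tyms*, which makes thymidylate, was 1 of the 2 members with a lower mean, at 12.1 and 10.5 against 7.41 and 5.09. *Prom1*, which marks crypt base and progenitor cells, lay at 37.6 and 34.5 against 64.2 and 63.6. It had the largest difference of 5 tested stem and progenitor genes. Of these 3 lay higher and 2 lower, 2 of each without overlap (18.4% and 21.3% of all tested genes). Their median was 0.56, but 0.01 without WR replicate 2 and -0.05 against the waters. For the proliferation list, the median against the mean of the waters was 0.08. Leaving out 1 array at a time kept 15 to 21 of the 22 proliferation genes higher. The fewest came without WR replicate 2, and without TW replicate 2 it was 18 with a median of 0.54.

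The *Mcm7* promoter (chr12:22163129-22163428, minus strand, RefSeq GRCr8) is shown as the gene of this list with the smallest p. Capitals mark its 1 match to TTTCCCGC, a form of the site read by E2F factors, on the reverse strand 233 bases before the start. This form was in 3 of 17 tested members with a promoter entry and in 1.09% of 27457 genes, and the form TTTGGCGC in 4 of 17 and in 0.554%; both strands were searched.
Mcm7: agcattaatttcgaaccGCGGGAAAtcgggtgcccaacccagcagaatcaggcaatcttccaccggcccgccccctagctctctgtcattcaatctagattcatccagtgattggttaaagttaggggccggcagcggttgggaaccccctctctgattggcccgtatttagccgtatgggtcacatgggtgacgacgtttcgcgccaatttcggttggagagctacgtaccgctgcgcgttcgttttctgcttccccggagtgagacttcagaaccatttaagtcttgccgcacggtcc

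Apoptosis genes showed little separation. Of 27 tested pro-apoptotic genes 15 lay lower and 12 higher (median -0.07), and of 15 anti-apoptotic genes 10 lay higher and 5 lower (median 0.17, -0.01 after median scaling). By limma 0 passed in either list. At an unadjusted p under 0.05, 2 pro-apoptotic genes lay lower and 1 anti-apoptotic gene higher (4.72% and 4.98% of all tested genes). *Bbc3*, the p53-driven BH3-only gene, was at 44.5 and 36.9 in TW against 24.2 and 23.8 in WR, and *Bak1*, which opens the mitochondrial outer membrane, at 157 and 161 against 110.0 and 122. *Mcl1*, a survival member of the same family, overlapped, at 1445 and 604 against 1898 and 1363. Its other tested probe set was nearly level (0.08, beside 0.78). *Bcl2* was dim, at the floor of 1 on both TW arrays and at 5.39 and 3.95 in WR. The study lists 13 apoptosis genes for WR from its PCR arrays, where all but *Gadd45a* were higher. Of these 10 were tested here: 4 lay higher, 6 lower, 0 passed by limma and 0 had an unadjusted p under 0.05. That list is not taken as independent evidence either. Beyond the PCR arrays, the study reports higher *bad* and *bax* mRNA in WR than in TW. Its Western blots had higher Bax and lower Bcl-2 and Txnrd1 protein in WR than in TW. Protein was not measured on the arrays used here.

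Stress genes were mixed. Of 24 tested heat shock and unfolded protein genes 17 lay lower and 7 higher (median -0.20, 0.12 as deposited); 12 lay higher without TW replicate 1 and 4 without WR replicate 2. *Hspa1a*, the inducible Hsp70, was at 145 and 80.1 in TW against 18.8 and 60.4 in WR, and *Pdia3*, a disulfide isomerase of the endoplasmic reticulum, at 744 and 612 against 431 and 552, although its other probe set did not follow (0.11). *Chac1* and *Trib3*, both targets of the amino acid stress factor ATF4, lay the other way, *Chac1* at 18.1 and 10.7 against 39.9 and 37.4 and *Trib3* at 193 and 106 against 216 and 281, though 1 of the 3 *Trib3* probe sets was lower in WR (-0.17). Of 35 tested proteasome genes 25 lay lower, 13 without overlap (21.3% of all tested genes), by small steps (median -0.10, 0.22 as deposited). *Psmb8*, a subunit of the immunoproteasome, read 936 and 1045 against 704 and 755, and *Tap2*, which feeds its peptides to class I molecules, 148 and 188 against 73.1 and 101.

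Clock genes are given because the time of collection is not stated. *Per2* read 54.4 and 92.8 in TW and 35.9 and 30.2 in WR (-1.11, SE 0.40, limma adjusted p 0.477), with 137 and 55.4 in DSW1200 and 128 and 182 in SeW. *Nr1d2* read 38.5 and 42.1 against 55.4 and 86.4, with the sign turned for the mean of its probe sets (-0.12). *Nr1d1*, the related repressor, read 13.0 and 5.76 against 10.7 and 23.8, a mean difference of 0.88 (SE 0.74) with overlap, and 53.0 and 80.5 in SeW. *Bmal1* lay at 51.8 and 51.8 against 62.7 and 61.9 (0.27), and on the log2 scale *Clock* was at 0.12, *Npas2* at -0.16, *Per1* at 0.32, *Cry1* at 0.06 and *Cry2* at 0.05, each with overlap. *Per3* and *Rora* were dim. Of 9 tested core genes, 7 lay higher and 2 lower (5 and 4 without TW replicate 2), and 0 passed by limma. At an unadjusted p under 0.05, 1 lay higher and 1 lower (4.98% and 4.72% of all tested genes). Of the 6 tested clock output genes *Nampt* was at 0.42, *Wee1* at 0.31, *Bhlhe40* at 0.13, *Nfil3* at -0.04, *Usp2* at -0.17 and *Tef* at -0.18, all but *Nampt* with overlap; *Dbp*, *Hlf* and *Bhlhe41* were dim. Their part in the other results was not tested.

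Markers of several other cell types lay higher in WR. Fibroblast markers were higher in all 10 tested members (median 0.63), *Pdgfra* at 33.5 and 20.6 against 46.6 and 56.4 and *Col1a2* at 15.03 and 14.7 against 37.1 and 24.8. The 11 fibroblast markers on the array summed to 432 and 230 in TW and to 529 and 454 in WR. Myeloid markers were higher in 12 of 14 tested (median 0.39), with *Csf1r*, the receptor of macrophages, at 34.6 and 21.1 against 48.3 and 49.5 and *Tyrobp* at 21.8 and 24.0 against 33.5 and 37.2, and all 18 summed to 2933 and 2426 against 3494 and 3247. T cell markers were higher in 10 of 11 (median 0.28), with the granule enzymes *Gzma* at 76.4 and 104 against 166 and 146 and *Gzmb* at 78.2 and 90.5 against 150.3 and 115; the defining marker *Cd3e* was dim, at 6.29 and 1.00 against 4.97 and 10.7. The plasma cell gene *Jchain* set TW replicate 2 apart, at 397 and 9.81 against 417 and 709.8. Pancreatic acinar markers were highest on WR replicate 2, summing to 208 and 62.0 in TW and to 129 and 670.0 in WR, with *Amy2a3* at 12.8 and 1.00 against 8.20 and 189.7 and *Prss1* at 19.5 and 3.01 against 27.5 and 78.4. Without TW replicate 2, 7 of 10 fibroblast markers were higher (median 0.17), 10 of 14 myeloid (0.20), 5 of 11 T cell (-0.03) and 2 of 5 acinar markers (-0.21), so the direction of the T cell and acinar lists rested on that array.

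**Figure D5:**
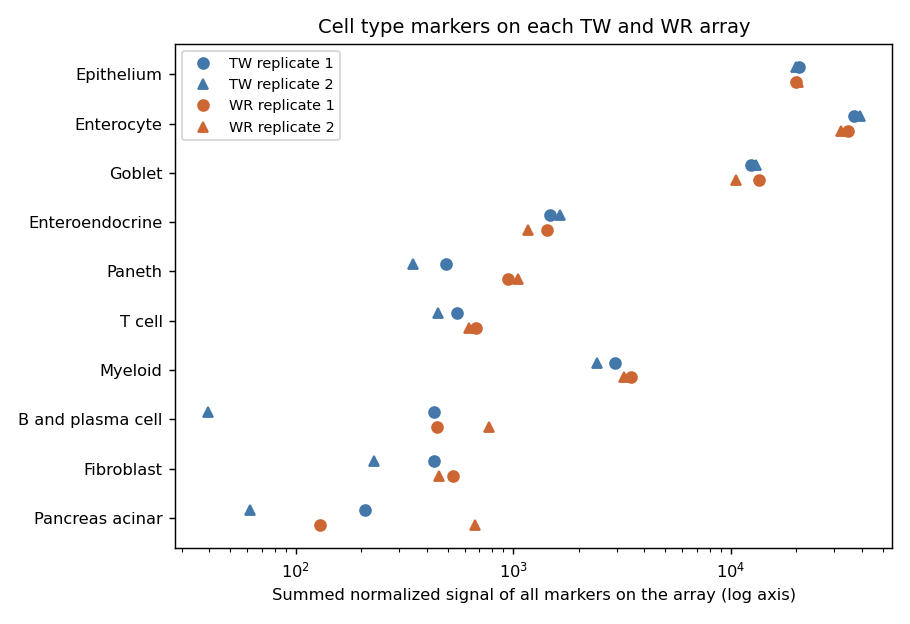
Summed normalized signal of all markers on the array (horizontal log axis) for 10 cell type lists; blue marks TW and orange WR, circles replicate 1 and triangles replicate 2. Epithelial sums coincide, Paneth, T cell, myeloid and fibroblast sums are higher on both WR arrays than on both TW arrays, TW replicate 2 is lowest for plasma and acinar markers, and WR replicate 2 is highest for acinar markers. *Lyz2* is counted in both the Paneth and the myeloid sum.

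Enterocyte markers leaned lower, with 8 of 10 tested below TW and a median of -0.22 (-0.07 as deposited), and summed to 36929.6 and 39265 in TW and 34719 and 32148 in WR. General epithelial markers overlapped in sum, at 20526 and 20072 against 19978 and 20475, as did goblet cell markers, at 12428 and 13058 against 13558 and 10542. These sums differed beside the levels of Paneth, proliferation and fat genes, and their part in them was not tested.

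Against the mean of DSW1200 and SeW, which rats drank for as long as TW, limma called 0 genes in WR (0.0%), with 352 higher (3.8%) and 354 lower (3.82%) at an unadjusted p under 0.05. The beta-actin 3'/5' ratio of these arrays lay outside the range of TW and WR, at 32.8 and 27.1 in DSW1200 and 13.6 and 10.9 in SeW, and its part in the differences was not tested. This comparison shares the WR arrays with the one above, so its values are given side by side and not as a second test. For *Txnrd1* the difference was -0.53 against -0.70 with TW, for *Eci1* -1.12 against -1.70, for *Apoa4* -0.70 against -0.70 and for *Ociad2* -1.25 against -1.11. WR stood apart from all 3 waters for *Ociad2*, whose other 6 arrays lay between 106 and 168. *Dhrs7* and *Ccdc71* lay close to the waters' mean (0.15 and -0.02) and further from TW (1.15 and 1.09). By list, the medians were -0.33 for Nrf2 targets, -0.15 for fatty acid oxidation and 0.19 for osmotic stress against the waters, beside -0.38, -0.27 and 0.25 against TW. The lean of other lists was not seen against the waters: fat synthesis was at 0.076 beside -0.28 against TW, antioxidant enzymes at 0.034 beside -0.20, and ion transport at -0.11 beside 0.18.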

How the data were processed

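The intensities deposited by the authors are linear MAS5 signals, 1 per probe set, by the submitters' processing notes; its version and scaling target are not given in the sources used here. Following the study's methods, all 8 arrays were quantile normalized; the floor was 1, followed by log2. Probe sets were named through Entrez number (20764), accession (2) or the array's symbol (66); 436 with several symbols and 9831 with none, including 57 controls, were left out. A gene was read from its brightest probe set.

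The comparison used limma 3.58.1 in R 4.3.3, with 1 model over 8 arrays (intensity trend, 4 residual degrees of freedom, Benjamini-Hochberg adjustment, threshold 0.05); the median standard error was 0.264. The number of arrays limits precision. The procedure was also run on simulated data with independent noise and no outlying array. That run does not bear on an array like TW replicate 2. The members, the 52 gene lists and the tests were chosen with earlier results of these data known. Named genes were the 10 highest and 10 lowest past the threshold, filled by smallest p among 2-fold differences without overlap. Every clock gene and, per list described, at most 4 members ranked by p were added, as were defining cell type markers. Genes the study lists for WR were part of the rule too, but most appear here only in counts. A few other members were named after their values were seen. Alternatives were other scalings, filters, an offset, other probe set rules, no trend, fewer arrays, the replicate number as a block and the beta-actin ratio as a covariate. List counts with an array left out were added after seeing the data. Promoters came from RefSeq (GRCr8).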

Additional observations from a re-analysis of the deposited data

How the results depend on the processing

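The count of genes higher in WR at adjusted p 0.05 was 1, and 3 with the values as deposited, 0 when dim genes were kept, 0 when the trend was left off, and 0 to 199 with 1 array left out: 199 without TW replicate 1 and 0 without either WR array. The count of lower genes was 0 in every setting except without TW replicate 1, where it was 20 (range 0 to 20); the remaining TW array is then assumed to vary like the other groups. Genes at least 2-fold higher without overlap numbered 224, and 746 as deposited, 745 with dim genes kept, 37 under the stricter filter (signal over 36.2, 5543 genes), 10 with an offset of 32, and 284 to 642 with 1 array left out, the most without TW replicate 1 (642) and WR replicate 1 (372). Those at least 2-fold lower numbered 106, and 18 as deposited, 614 with dim genes kept, 23 under the stricter filter, 8 with the offset, 171 over every probe set, and 152 to 287 with 1 array left out (253 without TW replicate 1, while WR replicate 1 left out gave 287 and WR replicate 2 gave 163). Requiring no overlap is easier with 1 array in a group. The replicate numbers do not pair the arrays (correlation of replicate differences between TW and WR 0.037), and with the replicate block the adjusted calls were 1 higher and 0 lower, as without it. Of 88 named genes over 1739 combinations of gene and alternative, 1716 kept direction and side of the threshold, 16 passed only in the alternative (14 of them without TW replicate 1), 4 lost the call (*Defa24*) and 3 turned sign, all with the mean of probe sets: *Eci1* (0.062), *Plin2* (0.084) and *Nr1d2* (-0.12). Dim genes limit the counts: with tested genes in 4 bins by brightness, the log2 ratio of the 2 TW arrays had an SD of 1.09 in the lowest bin and 0.43 in the highest.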

Other observations

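The median of all tested genes was -0.01, and the lists named here had medians from -0.23 to 0.28. Cholesterol synthesis had 13 of 19 tested genes lower, 10 without overlap (21.3% of all tested genes), by small steps (median -0.13, and 0.075 against the waters), and glycolysis 9 of 12 lower (median -0.11). Immediate early genes had 13 of 22 lower (median -0.10), hypoxia genes 8 of 16 (median 0.01), calcium and magnesium absorption 7 of 11 (median -0.03), renin, angiotensin and natriuretic genes 6 of 10 (median -0.07) and interferon and antigen presentation genes 11 of 16 (median -0.22). The last of these turned without WR replicate 2, with 10 of 16 higher (median 0.11), and had 9 of 16 lower without TW replicate 2 (-0.07); immediate early genes turned without WR replicate 2 as well (13 of 22 higher, median 0.07), as did renin, angiotensin and natriuretic genes (6 of 10 higher, 0.03), which also turned without TW replicate 1 (6 of 10 higher, 0.10). Hypoxia genes had 11 of 16 lower without WR replicate 1 (-0.09). Glucocorticoid-induced genes had 9 of 12 higher (median 0.07; 6 of 12 without TW replicate 1, -0.09, and without WR replicate 1, -0.05), xenobiotic metabolism 10 of 19 (median 0.10, between 0.02 and 0.14 with 1 array left out), innate defence 7 of 9 (median 0.28) and prostaglandin and mucosal protection genes 6 of 9 (median 0.17). None of these lists held a gene past adjusted p 0.05 by limma. In xenobiotic metabolism *Maob*, a monoamine oxidase, read 803 and 476 in TW and 952 and 1251 in WR, and *Ces2c*, a carboxylesterase, 271 and 316 against 229 and 172. Enteroendocrine markers had 7 of 9 tested genes lower (median -0.23) and duodenal markers 4 of 7 (median -0.02; 4 of 7 higher without TW replicate 2, 0.14).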
